A study of Mus musculus with 6 samples.

Results

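The mitotic gene set described here holds 46 genes of the G2 to M transition, the spindle, the kinetochore, the spindle checkpoint and condensin, chosen by gene symbol from the 37924 genes of the deposited table. All 46 were found there and all 46 passed the filter of a mean of at least 0.5 FPKM (fragment counts scaled to transcript length and library total) over the 6 libraries, so 46 of 14934 genes tested. Ovaries of C57BL/6J/129S7/SvEvBrd mice at postnatal day 14 were sequenced in 6 libraries, each from a pool of 3 ovaries taken from 3 mice. All mice carried 2 floxed copies of the gene under study. The 3 control pools came from mice without Cre, and the 3 conditional knockout pools, called cKO, from mice that also carried Gdf9iCre. Gdf9iCre is a Cre recombinase under the promoter of an oocyte growth factor gene, so the deletion is aimed at oocytes, while the somatic cells of the ovary keep the floxed allele. The comparison asks how transcripts of the whole ovary differ after this deletion in oocytes.

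During mitosis cyclin B with the kinase CDK1 drives entry, kinetochores built on centromeric chromatin attach chromosomes to spindle microtubules, and the spindle checkpoint holds back the anaphase-promoting complex (APC/C) until all are attached. Most of these genes are transcribed from late S phase to mitosis and are kept off in resting cells by the DREAM complex, whose MuvB core binds a promoter element called the CHR (cell cycle genes homology region). In the ovary at this age the dividing cells are mainly granulosa cells of growing follicles. The oocyte is arrested in meiotic prophase and stores some of the same transcripts for its later meiotic divisions.

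Of the 46 mitotic genes, 16 fell in the ovaries of cKO mice, none rose and 30 did not pass the test at an adjusted p below 0.05 (limma, Benjamini-Hochberg over all genes tested), where 2.09% of all genes tested fell and 2.24% rose. The split over all genes, 312 that fell and 334 that rose, became 421 and 270 with quantile normalization, 577 and 254 with libraries centred on their median, and 167 and 8471 with libraries centred on granulosa cell markers. The fall in mean FPKM of the 16 ran from 27.6% for Mad2l1 to 55.6% for Cenpf. In 41 of the 46, every cKO library lay below every control library, an order found in 12.0% of all genes tested. The reverse order was found in 0 of the 46 and in 2691 of all 14934 genes tested. A negative log2 change was measured in 44 members, beside 41.5% of all genes tested. The median log2 change was -0.48 over the 46 and 0.05 over all genes tested. At an unadjusted p below 0.05, 41 members were lower and 0 higher, where 9.80% and 14.5% of all genes tested were. In whole ovary, fewer dividing cells and less of these transcripts per dividing cell cannot be told apart. In the same pools the mean summed level of 20 granulosa cell markers differed by -30.2%, with 14 of them negative and 6 positive in log2 change. That of 16 oocyte markers differed by 63.3%, with 3 of them negative and 13 positive. Their part in the result was not tested beyond the centring given with the marker lists.

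The number of calls changed when 1 library was left out, for the members and for all genes tested. Without control 1, without control 2 or without cKO 1, 0 members fell, and the smallest adjusted p of a member was 0.0615, 0.0544 and 0.0501 in those limma fits. Without cKO 2 there were 6, without cKO 3 there were 9 and without control 3 there were 19. Of all 14934 genes tested, 4, 2, 2, 38, 176 and 353 fell in those 6 fits, in the order given. In all 6 of these fits 43 to 45 members had a negative log2 change and 37 to 40 were lower at an unadjusted p below 0.05. For the 41 members with every cKO library below every control library, leaving out a library could not change the sign. These fits are thus no separate check of direction.

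**Figure D1:**
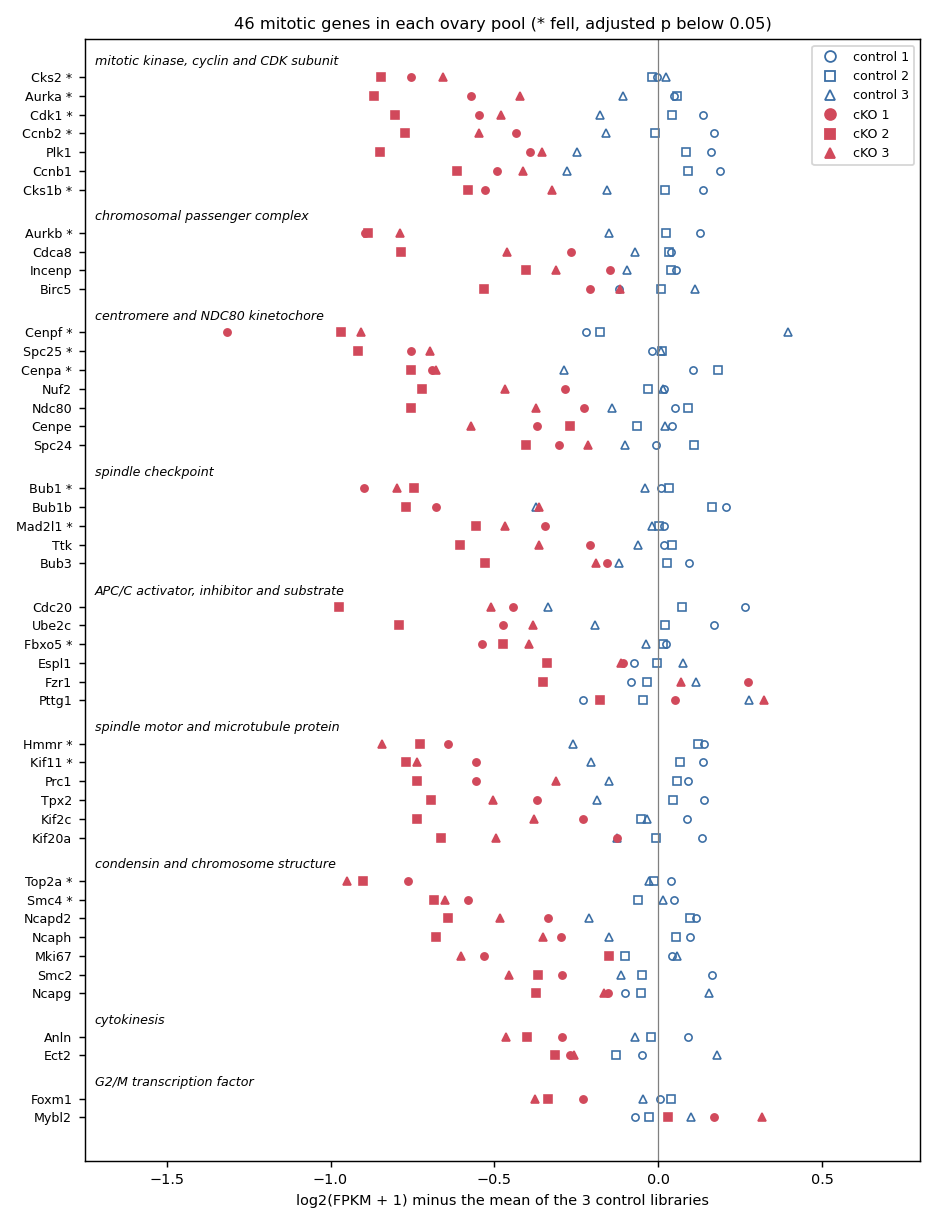
Each of the 46 mitotic genes by role, with log2(FPKM + 1) in each of the 6 ovary pools minus the mean of the 3 control pools on the x axis (open blue symbols control, filled red symbols cKO, stars for genes that fell). In 41 rows the red symbols all lie to the left of the blue ones, while Pttg1, Fzr1, Mybl2, Birc5 and Bub1b overlap.

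Promoter sequences were set beside these values because the CHR is a known shared element of such genes. The members were chosen by function, but with earlier results of these data known. How often they hold a CHR may therefore not be independent of the genotypes compared. Whether these elements bear on the changes was not tested. RefSeq promoter windows of 300 bases, from 250 before to 50 after the transcription start site, were found for 39 members on GRCm38.p6, the assembly of mm10. Aurkb, Foxm1, Incenp, Kif20a, Smc4, Spc24 and Tpx2 were not in that table. The first 25 bases after the start site were found in a GENCODE M21 transcript of the same gene for 26 of the 39 members. Positions are counted from the start site of each window, which can differ from that of GENCODE M21. A CHR was searched as TTTGAA or TTCGAA, and the CCAAT box, which binds the factor NF-Y, as CCAAT, on both strands and with overlapping matches counted. The windows of the 3 members with the smallest p that held a CHR form are shown, with CHR and CCAAT matches in capitals on either strand (TTCAAA and ATTGG are the other strand's reading).
Top2a: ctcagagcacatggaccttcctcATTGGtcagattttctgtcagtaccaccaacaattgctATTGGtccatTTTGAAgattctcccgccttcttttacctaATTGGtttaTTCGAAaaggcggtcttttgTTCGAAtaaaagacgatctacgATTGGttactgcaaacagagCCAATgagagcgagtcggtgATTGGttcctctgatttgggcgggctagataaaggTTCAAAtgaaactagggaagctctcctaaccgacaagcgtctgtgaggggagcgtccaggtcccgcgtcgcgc
Bub1: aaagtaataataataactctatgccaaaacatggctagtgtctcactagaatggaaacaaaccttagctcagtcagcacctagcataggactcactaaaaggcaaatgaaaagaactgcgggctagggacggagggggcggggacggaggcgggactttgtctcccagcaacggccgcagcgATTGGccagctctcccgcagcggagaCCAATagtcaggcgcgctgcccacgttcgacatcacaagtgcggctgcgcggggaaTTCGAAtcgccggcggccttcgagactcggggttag
Spc25: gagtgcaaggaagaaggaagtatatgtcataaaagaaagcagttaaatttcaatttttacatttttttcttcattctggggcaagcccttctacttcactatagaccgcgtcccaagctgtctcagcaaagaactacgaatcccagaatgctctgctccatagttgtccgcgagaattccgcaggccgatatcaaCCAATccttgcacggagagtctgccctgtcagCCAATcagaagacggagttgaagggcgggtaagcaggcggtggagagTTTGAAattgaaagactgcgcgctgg
The Top2a window, chr11:99024140-99024439 on the minus strand, held 6 CCAAT boxes and 4 CHR forms. Its CHR form closest to the start site lay 23 bases upstream. The Bub1 window, chr2:127831810-127832109 on the minus strand, held CCAAT boxes 68 and 42 bases upstream and TTCGAA at base 15 counted from the window's start site. Spc25 has the same layout in chr2:69206164-69206463 on the minus strand, with CCAAT boxes 55 and 23 bases upstream and TTTGAA at base 25 counted from the window's start site. In GENCODE M21 on the same build, Top2a (ENSMUSG00000020914) lies at chr11:98992943-99024189, Bub1 (ENSMUSG00000027379) lies at chr2:127801122-127831865 and Spc25 (ENSMUSG00000005233) lies at chr2:69193895-69206194, all on the minus strand.

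A CHR form was present in 29 of the 39 members (74.4%) and in 16.2% of the 10259 tested genes that had a window. Over all 32851 windows of the table, of any gene, the share was 19.2%. At least 1 CCAAT box was found in 30 members (76.9%, beside 42.8% of tested genes) and at least 2 in 21 members (53.8%, beside 16.2%). Both elements together were held by 26 members (66.7%), beside 6.82% of tested genes. The E2F-type sequence TTCCCGCC was in 0 of the 39 windows and in 4.57% of tested genes. Among the 14 members that fell and had a window, 12 held a CHR form and 12 held at least 2 CCAAT boxes. Among the other 25, 17 held a CHR form and 9 held at least 2 CCAAT boxes. These are matches of letters, and no binding was measured.

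**Figure D2:**
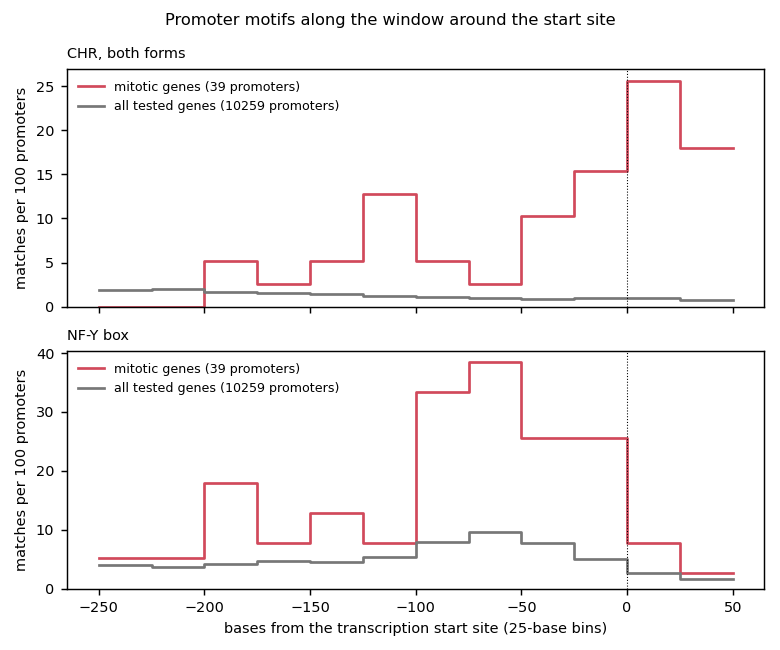
Matches per 100 promoters in bins of 25 bases along the window, with distance from the transcription start site in bases on the x axis, for the CHR (both forms, upper panel) and the NF-Y box (lower panel), in 39 mitotic genes (red) and 10259 tested genes (grey). Of 40 CHR matches in the mitotic genes 28 lay between 75 bases upstream and the window's end 50 bases downstream, against 459 of 1565 in tested genes, a span chosen after the positions were seen.

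Of the 7 genes for mitotic kinases, cyclin B and the small CDK subunits 5 fell, and every cKO library lay below every control library for all 7. Over all genes tested, 2.09% fell and 12.0% had that order of the groups. Cdk1, the kinase that drives entry into mitosis, measured 131, 122 and 105 FPKM in the control pools 1 to 3 and 80.9, 67.5 and 84.9 FPKM in the cKO pools. Its lowest control pool was thus still above its highest cKO pool, and the log2 change was -0.61 ± 0.12 (SE, adjusted p 0.0374, limma). Ccnb2, a cyclin that activates CDK1, measured 55.1, 48.4 and 43.6 FPKM in control and 35.9, 28.1 and 33.1 FPKM in cKO, and fell by 0.58 on the log2 scale (adjusted p 0.0426, limma). Its relative Ccnb1, the cyclin needed for mitotic entry, measured 55.7, 52.1 and 40.0 FPKM in control and 34.4, 31.5 and 36.4 FPKM in cKO. Ccnb1 did not pass, at a log2 change of -0.51 and an adjusted p of 0.0741, and control 3 was its lowest control pool. The within-library difference of Ccnb2 and Ccnb1 differed by -0.08 (log2) between the groups, which overlapped (two-sided exact permutation p 0.5, and 0.5 adjusted over the 4 pairs of members compared).

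Cks2 and Cks1b encode the small proteins that bind CDKs and help them act on phosphorylated substrates. Cks2 measured 118, 116 and 120.0 FPKM in control and 69.5, 65.2 and 74.5 FPKM in cKO, with a wide gap between the groups beside a narrow spread within each. It fell by 0.75 ± 0.08 on the log2 scale (SE, adjusted p 0.0103, limma). Cks1b measured 95.7, 88.2 and 78.1 FPKM in control and 60.0, 57.9 and 69.3 FPKM in cKO, and fell by 0.48 at an adjusted p of 0.0498, the closest call to the threshold. The excess of Cks2 over Cks1b within a library was 0.43 ± 0.16 on the log2 scale in control and 0.16 ± 0.05 in cKO (SD, n = 3), higher in every control pool than in any cKO pool. The exact permutation p was 0.1, the smallest that 3 against 3 can give, and 0.2 after adjustment over the 4 pairs of members compared. Ccnb1, Ccnb2 and Cks1b have annotated pseudogenes or retrogene copies in GENCODE M21, and how shared fragments were placed is not given in the sources used here.

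Both Aurora kinases fell. Aurkb, the kinase of the chromosomal passenger complex that corrects wrong kinetochore attachments, measured 35.8, 33.2 and 29.3 FPKM in control and 17.1, 17.2 and 18.5 FPKM in cKO. The cKO pools lay close together and far below the lowest control pool, and the log2 change was -0.86 ± 0.09 (SE, adjusted p 0.011, limma). Aurka, the kinase of spindle poles, measured 32.9, 33.1 and 29.4 FPKM in control and 21.1, 17.0 and 23.5 FPKM in cKO, a log2 change of -0.62 at an adjusted p of 0.0387. The difference of Aurka and Aurkb within a library was higher in cKO by 0.24 on the log2 scale, with overlapping groups and an exact permutation p of 0.3 (adjusted over the 4 pairs, 0.4). Plk1, the polo kinase of spindle assembly and cytokinesis, measured 24.0 to 32.2 FPKM in control and 15.5 to 22.2 FPKM in cKO and did not pass (log2 change -0.53, adjusted p 0.104).

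Of the 4 genes of the chromosomal passenger complex, Aurkb fell and 3 did not pass, where 2.09% of all genes tested fell. Birc5, or survivin, the subunit that brings the complex to centromeres, measured 85.1, 93.0 and 100.1 FPKM in control and 79.9, 63.8 and 85.3 FPKM in cKO. Its groups overlapped and it did not pass, at a log2 change of -0.29 and an adjusted p of 0.204. Cdca8, or borealin, and the scaffold gene Incenp had log2 changes of -0.50 and -0.29 at adjusted p-values of 0.0753 and 0.118. Whether these changes differ from that of Aurkb was not tested.

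At the kinetochore 3 of 7 genes fell, beside 2.09% of all genes tested. In all 7 every cKO library lay below every control library, beside 12.0% of all genes tested. Cenpf, a large protein of the outer kinetochore, measured 15.2, 15.7 and 23.8 FPKM in control and 6.56, 8.63 and 9.05 FPKM in cKO. It had the largest log2 change of the 46 members, -1.06 ± 0.19 (SE, adjusted p 0.0323, limma), and unlike most members it was highest in control 3. Cenpa, the histone H3 variant that marks centromeres, measured 46.7, 49.2 and 35.3 FPKM in control and 26.4, 25.3 and 26.7 FPKM in cKO, a log2 change of -0.71 at an adjusted p of 0.0328. Cenpe, a kinesin that carries chromosomes to the spindle equator, was low throughout, at 5.07 to 5.54 FPKM in control and 3.27 to 4.27 FPKM in cKO, and did not pass (adjusted p 0.082).

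The 4 genes of the NDC80 complex, the main link between kinetochore and microtubule, had unequal log2 changes. Spc25 measured 39.5, 40.4 and 40.3 FPKM in control and 23.3, 20.8 and 24.4 FPKM in cKO, a tight control group well above the cKO pools. Its log2 change was -0.79 ± 0.08 (SE, adjusted p 0.0104, limma). Spc24, which pairs with it at the inner end of the complex, measured 20.1 to 23.4 FPKM in control and 16.1 to 18.5 FPKM in cKO, with a log2 change of -0.31 and an adjusted p of 0.0964. Nuf2 and Ndc80, the pair at the microtubule end, did not pass, with log2 changes of -0.49 (adjusted p 0.0597) and -0.45 (adjusted p 0.116). The differences between these subunits were not tested.

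Of the 5 spindle checkpoint genes, Bub1 and Mad2l1 fell, where 2.09% of all genes tested fell. Bub1, a kinase that recruits checkpoint proteins to kinetochores, measured 17.2, 17.6 and 16.7 FPKM in control and 8.75, 9.84 and 9.44 FPKM in cKO. Its highest cKO pool was far below its lowest control pool, and the log2 change was -0.81 ± 0.08 (SE, adjusted p 0.00995, limma). Mad2l1, which encodes the MAD2 protein of the complex that inhibits the APC/C, measured 45.8, 45.3 and 44.6 FPKM in control and 35.4, 30.5 and 32.5 FPKM in cKO, and fell by 0.46 on the log2 scale (adjusted p 0.0313, limma). Bub1b, which encodes BUBR1 of the same inhibitory complex, measured 39.8, 38.6 and 26.3 FPKM in control and 21.1, 19.7 and 26.5 FPKM in cKO. Control 3 was level with cKO 3 for this gene, so the groups overlapped, and it did not pass at a log2 change of -0.60 (adjusted p 0.095). Ttk, the MPS1 kinase that starts checkpoint signalling, and Bub3, the partner of BUB1 and BUBR1, did not pass, with log2 changes of -0.39 (adjusted p 0.0919) and -0.29 (adjusted p 0.182).

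Of 6 regulators and substrates of the APC/C, the ubiquitin ligase that ends mitosis, 1 fell and 5 had a negative log2 change. In 4 of them every cKO library lay below every control library. Over all genes tested, 2.09% fell, 41.5% had a negative log2 change and 12.0% had that order of the groups. Fbxo5, or EMI1, an inhibitor of the APC/C, measured 22.0, 21.8 and 21.1 FPKM in control and 14.6, 15.3 and 16.2 FPKM in cKO, and fell (log2 change -0.47 ± 0.08, SE, adjusted p 0.0268). Cdc20, the activator used in mitosis, measured 49.5, 43.3 and 32.3 FPKM in control and 30.0, 20.4 and 28.5 FPKM in cKO, with a log2 change of -0.64 and an adjusted p of 0.0975. Fzr1, or CDH1, the activator that takes over as mitosis ends and acts through G1, measured 35.2, 36.4 and 40.5 FPKM in control and 45.3, 29.0 and 39.2 FPKM in cKO. For Fzr1 the cKO pools spanned the control pools, at an adjusted p of 0.994. Cdc20 minus Fzr1 within a library was 0.48, 0.24 and -0.32 on the log2 scale in the control pools and -0.58, -0.49 and -0.44 in the cKO pools. That difference was lower in every cKO pool, by 0.64 in the mean, with an exact permutation p of 0.1, the smallest possible, and 0.2 over the 4 pairs.

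Ube2c, the ubiquitin-conjugating enzyme of the APC/C, measured 91.1 to 117 FPKM in control and 59.8 to 79.7 FPKM in cKO and did not pass (adjusted p 0.0655). Pttg1, or securin, which holds back the protease separase, measured 90.6, 103 and 129 FPKM in control and 110.4, 94.0 and 134 FPKM in cKO. Its order did not follow genotype, with the highest values in control 3 and cKO 3, and its log2 change was 0.07 (adjusted p 0.841). Espl1, which encodes separase itself, was low, at 5.82 to 6.57 FPKM in control and 4.67 to 5.66 FPKM in cKO (adjusted p 0.315). Exons of 8 members, Plk1, Cdca8, Cdc20, Fzr1, Ube2c, Kif20a, Prc1 and Ncapg, overlap a gene on the opposite strand in GENCODE M21, and the strand setting of the counting is not given in the sources used here. Of the 16 members that fell 0 have such an overlap. Top2a, Ncapd2 and Foxm1 overlap another annotated gene on their own strand.

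For all 6 genes of spindle motors and microtubule proteins every cKO library lay below every control library, and 2 of them fell. Over all genes tested, 12.0% had that order of the groups and 2.09% fell. Kif11, the Eg5 motor that pushes spindle poles apart, measured 18.4, 17.5 and 14.3 FPKM in control and 11.0, 9.34 and 9.57 FPKM in cKO, a log2 change of -0.69 ± 0.11 (SE, adjusted p 0.0281, limma). Hmmr, which acts with TPX2 at spindle poles, measured 11.7, 11.6 and 8.63 FPKM in control and 6.40, 5.97 and 5.43 FPKM in cKO, a log2 change of -0.74 at an adjusted p of 0.0323. For both genes control 3 was the lowest control pool and lay above all cKO pools. Tpx2, which activates Aurora A on the spindle, and Prc1, which bundles microtubules of the central spindle, did not pass, with log2 changes of -0.52 (adjusted p 0.0554) and -0.54 (adjusted p 0.0569). The kinesin genes Kif2c, whose product takes microtubules apart, and Kif20a, which acts in cytokinesis, did not pass, with log2 changes of -0.45 (adjusted p 0.0995) and -0.43 (adjusted p 0.133).

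Condensin folds chromosomes into compact rods, and Top2a untangles their DNA. Top2a had the smallest p of the 46 members, from 83.0, 80.0 and 79.2 FPKM in control to 47.2, 42.8 and 41.3 FPKM in cKO. The gap between the groups was many times the spread within either, and the log2 change was -0.87 ± 0.08 (SE, adjusted p 0.00918, limma). Smc4, an ATPase subunit of condensin, measured 52.2, 48.3 and 50.9 FPKM in control and 33.4, 31.0 and 31.8 FPKM in cKO, a log2 change of -0.64 at an adjusted p of 0.012. Its ATPase partner Smc2 measured 13.0 to 16.0 FPKM in control and 10.1 to 11.4 FPKM in cKO and did not pass (log2 change -0.37, adjusted p 0.081). The condensin I subunit genes Ncapd2, Ncaph and Ncapg had log2 changes of -0.49, -0.44 and -0.23 at adjusted p-values of 0.0678, 0.0865 and 0.223.

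Mki67, which encodes the Ki-67 antigen used to mark dividing cells, measured 16.8, 15.1 and 17.0 FPKM in control and 11.0, 14.6 and 10.4 FPKM in cKO. Its cKO 2 pool was just under control 2, and it did not pass at a log2 change of -0.43 (adjusted p 0.102). Of the cytokinesis genes, Anln, or anillin of the contractile ring, measured 11.6 to 13.2 FPKM in control and 8.64 to 9.84 FPKM in cKO (adjusted p 0.0568). Ect2, which activates RhoA at the division plane, measured 17.6 to 22.0 FPKM in control and 15.4 to 16.0 FPKM in cKO (adjusted p 0.135).

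Neither of the transcription factors that switch on late cell cycle genes passed the test. Foxm1 measured 16.8, 17.2 and 16.1 FPKM in control and 14.1, 13.0 and 12.6 FPKM in cKO, lower in every cKO pool with a log2 change of -0.31 and an adjusted p of 0.0706. Mybl2, or B-MYB, which joins MuvB to activate promoters with a CHR, measured 17.5 to 19.8 FPKM in control and 18.8 to 23.2 FPKM in cKO. Mybl2 was 1 of the 2 members with a positive log2 change, 0.17 at an adjusted p of 0.331, and its groups overlapped. Of 15 genes of the DREAM and MuvB complexes and of NF-Y, none fell or rose by limma, and 3 were lower and 1 higher at an unadjusted p below 0.05. Over all genes tested 2.09% fell and 2.24% rose, and 9.80% were lower and 14.5% higher at that unadjusted p. The most abundant of the 15 were Rbbp4, a histone-binding MuvB subunit, at 110.0 ± 2.78 FPKM in control and 97.5 ± 10.1 in cKO, and the E2F partner Tfdp1 at 56.0 ± 7.62 and 50.2 ± 2.86 FPKM (SD, n = 3).

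Other mitotic genes were taken from a list of 82 that shares none of the 46. Of the 82, 25 fell, none rose and 57 did not pass, where 2.09% of all genes tested fell. Every cKO library lay below every control library in 55 of them, beside 12.0% of all genes tested, above in 1, and the groups overlapped in 26. A negative log2 change was measured in 78, beside 41.5% of all genes tested. The 4 with a positive one, none of which passed, were Mad1l1 at 0.30, Iqgap3 at 0.20, Cit at 0.15 and Zwint at 0.01. The list's median log2 change was -0.39. Pbk, a kinase of mitotic cells, measured 38.0, 35.5 and 32.7 FPKM in control and 20.9, 16.1 and 20.4 FPKM in cKO (log2 change -0.86, adjusted p 0.0181). Depdc1a and the centromere genes Cenpi and Cenpk fell too, by 0.67, 0.66 and 0.66 (log2), and Cenpk overlaps Ppwd1 on the opposite strand. Without control 1, without control 2 or without cKO 1, 0 of the 82 fell. Without cKO 2 there was 1, without cKO 3 there were 9 and without control 3 there were 22. Of all genes tested, 4, 2, 2, 38, 176 and 353 fell in those fits, in the order given. With control 3 and cKO 3 both left out, 9 of the 82 fell, and 267 of all genes tested.

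Core machinery used by the same process was set beside these lists, where 2.09% of all genes tested fell and 2.24% rose by limma. At those shares, 0 calls in lists of 14 and 12 genes is close to the background. Of the 14 core subunits of the APC/C, none fell or rose by limma, with 3 lower and 1 higher at an unadjusted p below 0.05 and a median log2 change of -0.05. Over all genes tested, 9.80% were lower and 14.5% higher at that unadjusted p. Anapc13 measured 143 ± 13.2 FPKM in control and 120.2 ± 1.19 in cKO and Anapc5 121 ± 5.69 and 112 ± 6.76 FPKM (SD, n = 3), with an adjusted p of 0.135 for Anapc13 and 0.44 for Anapc5. Of 12 genes of cohesin, the ring that holds sister chromatids, and its regulators, none fell or rose, with 3 lower and 1 higher at an unadjusted p below 0.05 and a median of -0.05. Rad21 measured 72.1 ± 2.74 and 62.1 ± 6.84 FPKM and Smc1a 35.2 ± 1.79 and 31.6 ± 2.33 FPKM, at adjusted p-values of 0.202 and 0.315. The difference between these lists and the 46 mitotic genes was not tested.

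**Figure D3:**
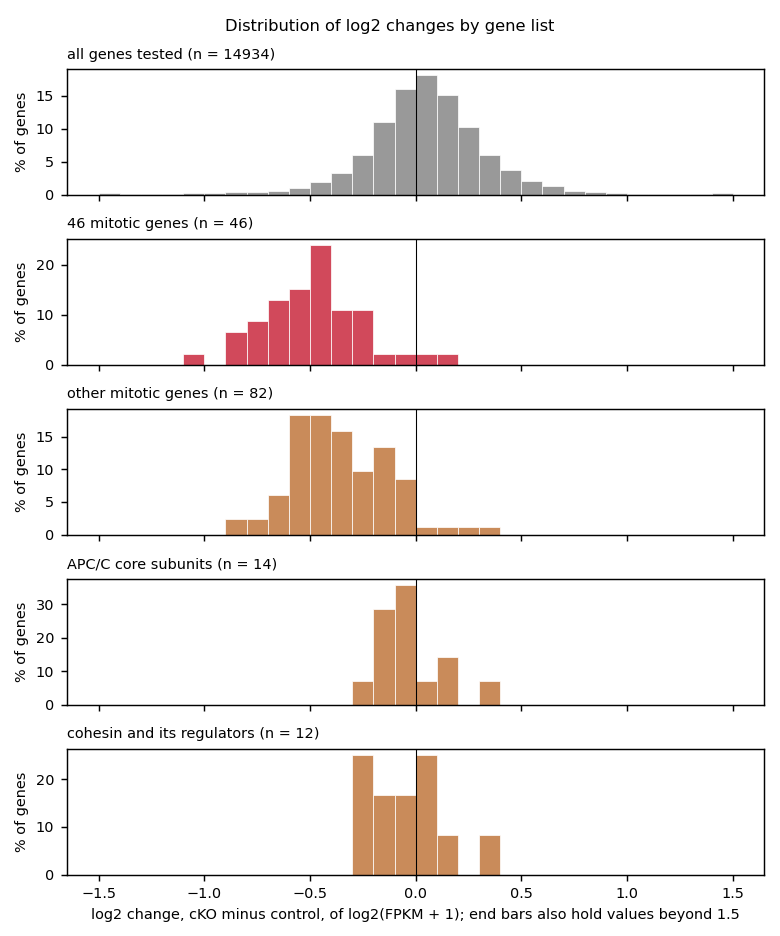
Share of genes in each bin of log2 change (cKO minus control, on log2(FPKM + 1)) for all genes tested and for 4 gene lists. The 46 mitotic genes centre near -0.48 and the 82 other mitotic genes near -0.39, while APC/C core subunits and cohesin genes lie around -0.05.

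Markers of the cell types of the ovary were measured in the same pools. Summed over the 46 members, the level was 1684 to 1828 FPKM in control and 1115 to 1343 FPKM in cKO. The summed level of 20 granulosa cell markers was 4736 to 5719 FPKM in control and 3337 to 3829 FPKM in cKO. Of the 20, 7 fell, 2 rose and 11 did not pass, where 2.09% of all genes tested fell and 2.24% rose. Much of the difference in the sum lay in Inha, an inhibin subunit, at 2017 ± 237 FPKM in control and 1265 ± 158 in cKO, in Gja1 at 793 ± 106 and 387 ± 24.6, and in Serpine2, a protease inhibitor, at 653 ± 54.8 and 368 ± 40.9 (SD, n = 3). Those with the smallest p, Fst, Gja1, Inhbb and Hsd17b1, fell by 1.85, 1.02, 1.49 and 1.36 on the log2 scale. These 4 encode follistatin, the gap junction protein of granulosa cells, an activin subunit and an enzyme of estradiol synthesis. In the other direction Gatm and Wt1 rose, by 1.01 and 0.61, and Kitl, Kctd14 and Foxl2 had every cKO pool above every control pool without passing, at log2 changes of 0.73, 0.49 and 0.43. The summed level of 16 oocyte markers was 1428 to 1621 FPKM in control and 1972 to 3011 FPKM in cKO. Of the 16, 5 rose, none fell and 11 did not pass, with Sohlh1, Zp2, Figla and Padi6 up by 1.43, 0.89, 0.98 and 0.96. Much of the difference in this sum lay in Zp2, Zp3 and Padi6, at means of 241, 277 and 305 FPKM in control and 452, 484 and 607 in cKO. Log2 changes were positive in 13 oocyte markers and negative in 3, Bmp15 at -0.67, Oosp1 at -0.05 and Dazl at -0.04. All 20 granulosa and all 16 oocyte markers were detected.

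With the libraries centred on the mean log2 level of these 20 granulosa cell markers, which did not share a direction, 35 of the 46 members were still lower in cKO, 11 fell, and 1, Mybl2, rose. In that centred fit 167 of all 14934 genes tested fell and 8471 rose. The median log2 change of the members was -0.12 there, where the median of all genes tested shifted to 0.41. The 11 were all among the 16 that fell without centring. Markers of theca, stroma, endothelium, immune cells and surface epithelium held 0 of 9, 0 of 10, 0 of 8, 0 of 11 and 0 of 8 tested members that fell by limma, and 0, 2, 0, 2 and 0 that rose. Those that rose were the stroma markers Tcf21 and Pdgfra, by 0.55 and 0.81, and the mast cell markers Cpa3 and Mcpt4, by 1.44 and 1.48. Over all genes tested 2.09% fell and 2.24% rose in the same fit, without centring. At an unadjusted p below 0.05, 0, 1, 0, 0 and 0 of these markers were lower and 2, 5, 1, 3 and 1 higher, where 9.80% and 14.5% of all genes tested were. The median log2 changes of these 5 lists were 0.51, 0.27, 0.24, 0.26 and 0.26, and their part in the fall of the mitotic genes was not tested. Markers of fat and blood summed to 6287, 3999 and 2067 FPKM in control and 1281, 932 and 4179 FPKM in cKO. Of the 9 tested, 0 fell by limma, with 2 lower at an unadjusted p below 0.05. All 9 had a negative log2 change, beside 41.5% of all genes tested, with a median of -1.16, and the groups overlapped in 7. The part of fat and blood in the fall of the mitotic genes was not tested either. Of 18 reference genes 0 fell and 0 rose by limma, with 3 lower and 2 higher at an unadjusted p below 0.05.

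**Figure D4:**
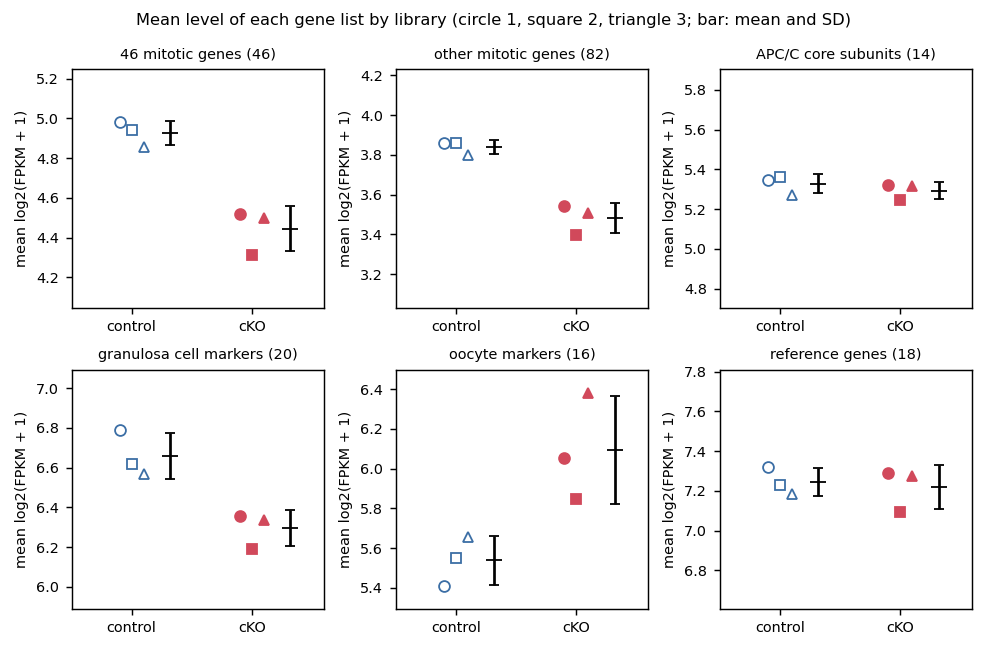
Mean log2(FPKM + 1) of 6 gene lists in each library (circle, square and triangle for pools 1, 2 and 3 of a group, with the group mean and SD beside them), each panel spanning the same height. The mitotic and granulosa lists are lower in all 3 cKO pools, the oocyte list is higher in all 3, and APC/C core subunits and reference genes overlap.

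The depth of the libraries was estimated at 19.6 to 24.9 M fragments (M for 1e6) from the smallest FPKM values, so 10 FPKM in a transcript of 2 kb stands for about 392 to 498 fragments. Mitochondrial transcripts took 7.31% to 14.2% of summed FPKM. Pools are separate sets of mice, and 3 per group limit the precision of each standard error.

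**Figure D5:**
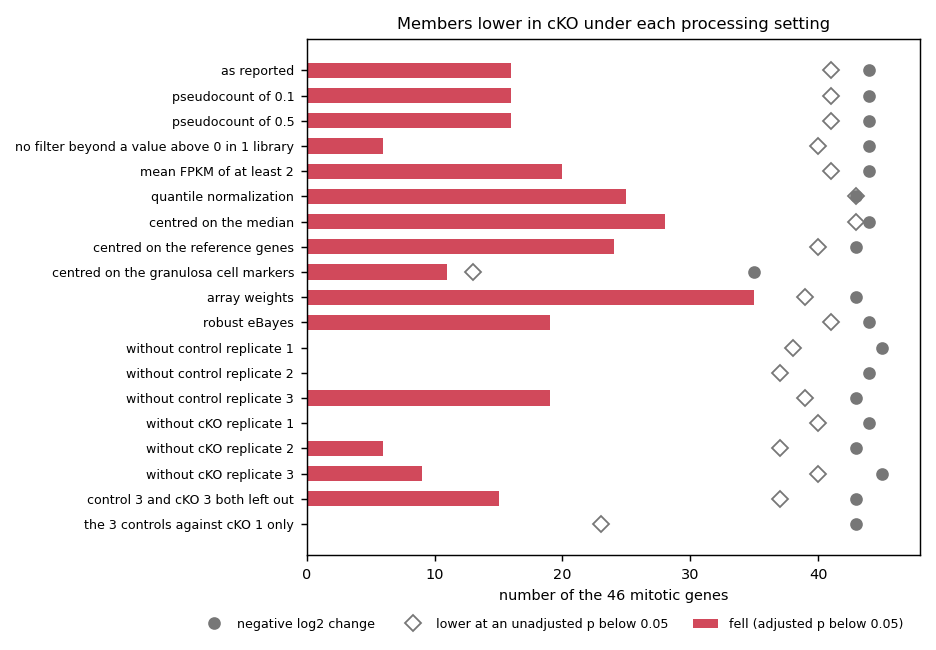
Number of the 46 mitotic genes that were lower in cKO under each processing setting, with bars for genes that fell, diamonds for genes lower at an unadjusted p below 0.05 and dots for genes with a negative log2 change. The bars range from 0 to 35, and the dots stay at 43 to 45 except for 35 with libraries centred on the granulosa cell markers.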

How the data were processed

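The authors deposited 1 table of FPKM for 37924 Ensembl genes in 6 libraries. Per the submitters' processing notes, TopHat2 2.0, Cufflinks 2.0 and the build mm10 were used. Annotation, filters and strand setting were not given in the sources used here. FPKM is scaled to transcript length and library total, so abundant transcripts lower all others. Groups follow the genotype label, and replicate numbers follow the order of deposit.

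Genes with a mean of at least 0.5 FPKM were tested on log2(FPKM + 1) with limma 3.58.1 in R 4.3.3 (eBayes with trend), with Benjamini-Hochberg adjustment over 14934 genes. Fold changes are cKO minus control on that scale, which understates changes of low genes. Rose and fell mark an adjusted p below 0.05. The 46 members, the lists and the tests were chosen with earlier results of these data known. List genes were matched by symbol, or by Ensembl ID through GENCODE M21 for 10 of them. Named were all members and, from 6 lists, up to 4 passing genes with the smallest p, or the 2 most abundant where none passed. Apart from S100a8 and S100a9, the other marker lists are given by counts and the genes that passed. Some members of the granulosa, oocyte, immune and other mitotic lists were named after their values were seen. They have the opposite direction or carry a list's sum. For 4 pairs of members the within-library difference was tested by a two-sided exact permutation test. The procedure was tested on simulated data. Depth was estimated from FPKM below 0.15 in genes with 1 transcript, each read as 1 fragment, and carries no interval. Other pseudocounts, filters, scalings and weights and left-out libraries were tried. The floxed gene's own values are not reported here.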

Additional observations from a re-analysis of the deposited data

How the results depend on the processing

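No paired analysis was possible because no label pairs a control pool with a cKO pool. All 16 members that fell kept a negative log2 change under all 18 alternatives. For these 16 every cKO library lay below every control library, so only quantile normalization and the centrings could have turned a sign. Other pseudocounts kept the count at 16. The count became 6 with no filter, 25 with quantile normalization, 28 with libraries centred on the median, 35 with array weights and 0 for the 3 controls against cKO 1, where the lone cKO pool is assumed to vary as the controls do and 23 members were lower at an unadjusted p below 0.05. With 1 library left out it was 0 to 19, in fits with fewer samples. Other mitotic genes that fell numbered 0 with no filter, 4 centred on the granulosa cell markers, 41 with array weights, 9 with control 3 and cKO 3 both left out, 0 against cKO 1 only, and 0 to 22 with 1 library left out. Centring on the granulosa cell markers made 1 member and 7 other mitotic genes rise, where 8471 of all genes tested rose.

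Over all genes, those that fell numbered 24 with no filter, 577 centred on the median, 167 centred on the granulosa cell markers, 743 with array weights, 1 against cKO 1 only, and 2 to 353 with 1 library left out. Those that rose numbered 4, 254, 8471, 1041, 22 and 0 to 307 in the same order, and 204 with both pools numbered 3 removed. The cause was not tested.

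Signs turned for genes that had not passed. Fzr1 was 0.0173 with quantile normalization, 0.0241 centred on the reference genes, 0.36 centred on the granulosa cell markers, 0.0839 with array weights, 0.0194 without both pools numbered 3 and 0.27 against cKO 1 only, and ran from -0.141 to 0.172 with 1 library left out (above 0 without control 3 and without cKO 2). Pttg1 ran from -0.0634 to 0.204 with 1 library left out (below 0 without control 1 and without cKO 3). Centred on the granulosa cell markers, Incenp was 0.0743, Birc5 0.0775, Spc24 0.0551, Bub3 0.0708, Espl1 0.18, Ncapg 0.13, Ect2 0.0820, Foxm1 0.0489, Anapc13 0.11, Anapc5 0.25, Rad21 0.14, Smc1a 0.21, Rbbp4 0.19 and Tfdp1 0.21.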

Other observations

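The pools of a group were not alike for the mitotic genes. Control 3 was the lowest control pool for 31 of the 46 members and control 1 the highest for 28. Among cKO pools, cKO 2 was the lowest for 35 members and cKO 1 the highest for 24. The reference gene list was also lowest in cKO 2, at a mean log2 level of 7.09 beside 7.19 to 7.32 in the other 5 libraries. For 10 members control 3 was instead the highest control pool, for example Cenpf, at 23.8 FPKM there against 15.2 and 15.7 FPKM, and Pttg1, at 129 FPKM against 90.6 and 103 FPKM. Both examples were picked after their values were seen.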
